A study of Sus scrofa with 6 samples.

Results

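The genes described here encode a provisional matrix, the loose extracellular matrix that a vessel wall lays down after injury. Of 10 listed genes, POSTN, VCAN, FN1, THBS1, THBS2, CTGF and CYR61 were found by their symbol in the deposited gene table, which makes 7 members among 22861 gene rows. TNC, SPARC and CTHRC1 stand in the table only under an identifier. They are given apart from the members, with names taken from a reference table.

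RNA sequencing had been done on abdominal aorta of Wisconsin Miniature Swine (WMS). The lesion group came from the familial hypercholesterolaemia line (FH), whose inherited defect raises blood cholesterol, and its tissue carried atherosclerotic lesions. The lesion-free group came from normal swine of the same breed. RNA of 11 animals in each group had been combined into 3 pools, called lesion replicates 1 to 3 and lesion-free replicates 4 to 6. Swine line and lesion status went together in every pool, so a difference in lesion status cannot be told apart from one in line. Age, sex and diet of the animals are not given per pool in the labels. A p-value here measures the spread between pools, which need not be the spread between animals.

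In a healthy artery the matrix is dominated by collagen and elastic fibres made by quiescent smooth muscle. Fibronectin and versican are laid down early when smooth muscle or fibroblasts become active, and cells attach to them through integrins and hyaluronan receptors. Periostin and the thrombospondins are matricellular proteins, which sit in the matrix and alter how cells and collagen bind without being a main structural part. CTGF and CYR61 (also named CCN2 and CCN1) are secreted CCN proteins whose genes are well-known targets of the mechanosensitive regulators YAP and TAZ.

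The pools held 4650176 to 11442433 counts, and the shallowest was lesion replicate 1. The lowest count of a member was 408, for VCAN in lesion-free replicate 4. Levels are given as CPM, that is, counts divided by the scaled library total and brought to a common base. They are not divided by transcript length, so levels of different genes are not compared. The smooth muscle of the tissue was clear in its markers, of which all 8 matched genes were tested. MYH11 and LMOD1 were not matched by name. ACTA2, smooth muscle actin, averaged 14306 CPM in lesion pools and 24100.2 CPM in lesion-free pools.

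POSTN and VCAN rose in lesion pools, and no member was called lower. FN1, THBS1 and THBS2 had positive folds and CTGF and CYR61 negative ones, none of which passed the test. The test was limma with voom weights over all 11673 genes with enough counts, and a gene is called when its Benjamini-Hochberg adjusted p is under 0.05. Of the 7 members, 2 were called higher and 0 lower. Over all genes tested, 0.968% were called higher and 0.0771% lower. At an unadjusted p under 0.05, limma had 3 members higher and 1 lower, CYR61, where 10.6% of all genes tested passed in either direction, and limma trend also called 0 members lower. The members' median log2 fold was 0.69, against -0.002 over all genes tested. The members were chosen with earlier results of these data known, so these counts and this median are no test of the set. In POSTN, VCAN and FN1, 3 of the 7 members, the groups did not overlap, as was the case for 19.4% of all genes tested.

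**Figure D1:**
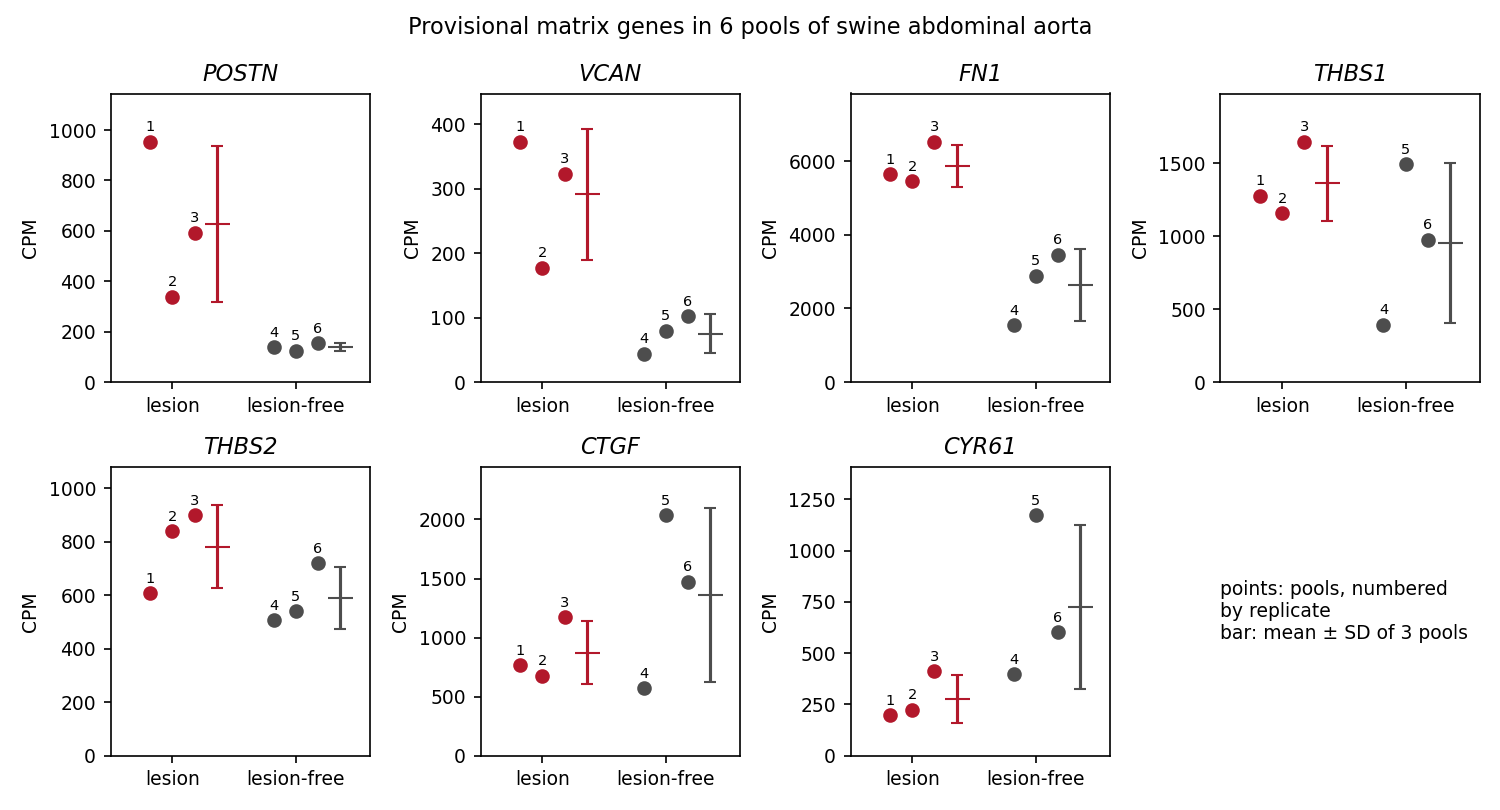
CPM (vertical axes, starting at 0) of the 7 members in the 3 lesion pools (red, left) and the 3 lesion-free pools (grey, right), numbered by replicate, with the mean and SD of each group beside the points. For POSTN, VCAN and FN1 every lesion pool lies above every lesion-free pool, and for CTGF and CYR61 the lesion mean is below the lesion-free mean.

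POSTN encodes periostin, a matricellular protein of the fasciclin family that binds integrins and takes part in collagen assembly and cross-linking. It stood at 954, 338 and 592 CPM in lesion replicates 1, 2 and 3, against 138, 125 and 154 CPM in lesion-free replicates 4, 5 and 6. The lesion-free pools were close together, with a coefficient of variation of 10.4%, while the lesion pools spread with one of 49.2%. The highest lesion pool held 2.82 times the level of the lowest lesion pool, and the lowest was still above all lesion-free pools. Means were 628 ± 309 CPM in lesion pools and 139 ± 14.4 CPM in the lesion-free pools (SD, n = 3 each). The fold was 4.18, a log2 fold of 2.06 (SE 0.33, 95% interval 1.35 to 2.78, limma adjusted p = 0.0055). By p-value POSTN was gene 46 of those tested, and by log2 fold, counted from the highest, gene 603.

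VCAN encodes versican, a large chondroitin sulphate proteoglycan that binds hyaluronan and, in human atheroma, lipoproteins. It stood at 373, 177 and 323 CPM in lesion replicates 1, 2 and 3, against 44.0, 79.7 and 103 CPM in lesion-free replicates 4, 5 and 6. The groups did not overlap, and the order of the lesion pools (replicate 1, then 3, then 2) was that of POSTN. Means were 291 ± 102 CPM in lesion pools and 75.5 ± 29.6 CPM in the lesion-free pools (SD, n = 3 each). The fold was 3.91, a log2 fold of 1.97 (SE 0.36, 95% interval 1.20 to 2.74, limma adjusted p = 0.014). VCAN was no longer called without lesion replicate 1, where its log2 fold was 1.75 (limma adjusted p = 0.0716). POSTN was called whichever pool was left out, with an adjusted p of at most 0.0309.

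FN1 encodes fibronectin, the adhesive glycoprotein whose fibrils serve as a scaffold for later collagen. It stood at 5636, 5451 and 6527 CPM in lesion replicates 1, 2 and 3, against 1542, 2892 and 3456 CPM in lesion-free replicates 4, 5 and 6. Here the lesion pools lay close together, with a coefficient of variation of 9.80%, and the lesion-free pools spread with one of 37.4%. The pattern of spread was thus the reverse of that of POSTN. The log2 fold was 1.23 (SE 0.32, 95% interval 0.54 to 1.92), and FN1 did not pass the test (limma adjusted p = 0.102). With libraries scaled by total counts only, its log2 fold was 1.41 and it passed (limma adjusted p = 0.0467). That scaling also moved the median of all genes tested to 0.16.

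THBS1 and THBS2 encode thrombospondins 1 and 2, matricellular proteins that restrain new vessel growth, and thrombospondin 1 can also activate latent TGF-beta. THBS1 stood at 1280.0, 1159.7 and 1649.7 CPM in lesion replicates 1, 2 and 3, against 394, 1495 and 978 CPM in lesion-free replicates 4, 5 and 6. The groups overlapped, because lesion-free replicate 5 was above lesion replicates 1 and 2. Its log2 fold was 0.69 (SE 0.41, 95% interval -0.20 to 1.58, limma adjusted p = 0.584). THBS2 stood at 609, 839 and 900.1 CPM in lesion replicates 1, 2 and 3, against 507, 539.8 and 721 CPM in lesion-free replicates 4, 5 and 6. Only lesion replicate 1 fell within the lesion-free range. Its log2 fold was 0.40 (SE 0.28, 95% interval -0.19 to 0.99, limma adjusted p = 0.632). The upper ends of these intervals correspond to folds of 3.00 for THBS1 and 1.99 for THBS2, and the lower ends lie below 0.

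CTGF and CYR61 encode CCN proteins that bind integrins and heparan sulphate. CTGF stood at 768, 678 and 1174 CPM in lesion replicates 1, 2 and 3, against 574, 2037 and 1473 CPM in lesion-free replicates 4, 5 and 6. Lesion-free replicate 4 was below every lesion pool, and lesion-free replicates 5 and 6 were above every lesion pool. The log2 fold was -0.50 (SE 0.41, 95% interval -1.40 to 0.40, limma adjusted p = 0.703). CYR61 stood at 197, 223 and 411 CPM in lesion replicates 1, 2 and 3, against 398, 1173 and 603 CPM in lesion-free replicates 4, 5 and 6. Of the lesion pools, only replicate 3 reached into the lesion-free range. Its log2 fold was -1.32 (SE 0.39, 95% interval -2.17 to -0.48), a 2.50-fold lower level that did not pass the test (limma adjusted p = 0.186). Without lesion-free replicate 4 the log2 fold was -1.67 and the adjusted p was 0.0535, and without lesion replicate 3 it was -1.64 with an adjusted p of 0.0536. The weakest fit was that without lesion-free replicate 5, with a log2 fold of -0.90 (limma adjusted p = 0.582).

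**Figure D2:**
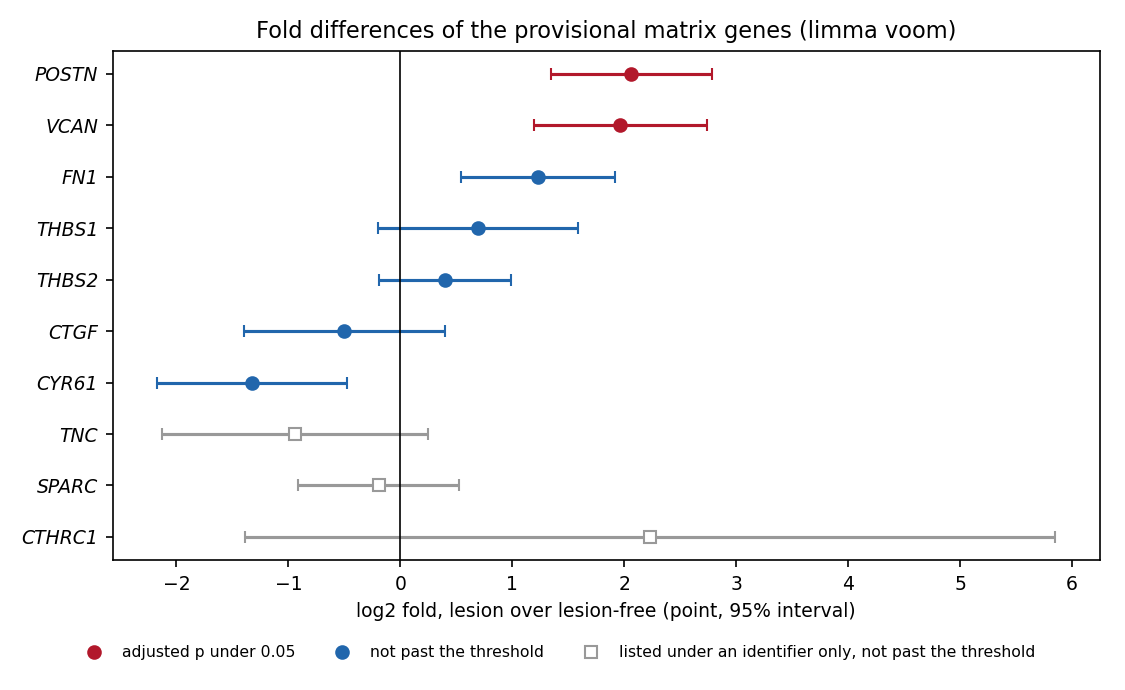
Log2 fold of lesion over lesion-free pools (horizontal axis) with its 95% interval for the 7 members (circles) and for 3 listed genes that the table holds only under an identifier (squares). POSTN and VCAN (red) passed the test. The intervals of FN1 and CYR61 leave out 0 on opposite sides, although neither gene passed after adjustment over all genes.

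Lesion-free replicate 4 had the lowest level of its group in 6 of the 7 members, all but POSTN. Lesion replicate 3 had the highest level of its group in 5 members, and lesion replicate 1 in the other 2, POSTN and VCAN. The shares of all genes with such orders were not computed, so neither is shown to be particular to the members. In counts over all genes, lesion-free replicate 4 differed from 5 and 6 by a chi-square of 72.1 and 97.7 per degree of freedom. Between lesion-free replicates 5 and 6 it was 22.7, and between lesion pools it was 54.0 to 64.7. Without lesion-free replicate 4 the log2 fold was 0.89 for FN1 and 0.16 for THBS1. The 7 members together held 1.10%, 0.987% and 1.11% of all counts in lesion replicates 1, 2 and 3, against 0.308%, 0.819% and 0.743% in lesion-free replicates 4, 5 and 6. FN1 alone made up 56.4% to 61.5% of these counts in lesion pools and 34.7% to 46.2% in lesion-free pools.

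Ratios between members within a pool do not depend on how libraries are scaled, and 5 of them were computed, chosen after the values were seen. The VCAN to FN1 count ratio was 0.0663, 0.0325 and 0.0495 in lesion replicates 1, 2 and 3, against 0.0286, 0.0276 and 0.0297 in lesion-free replicates 4, 5 and 6. The groups did not overlap, and the lesion ratio was 1.66-fold higher on the mean of log2 values. The CYR61 to CTGF ratio was 0.257, 0.3296 and 0.3501 in lesion pools, against 0.695, 0.576 and 0.4095 in lesion-free pools, again without overlap. Each gave p = 0.1 in a two-sided exact permutation test, the smallest p that 3 pools against 3 allow, and 0.25 after adjustment over the 5 ratios computed. The POSTN to FN1 (exact permutation p = 0.2), THBS1 to THBS2 (0.6) and VCAN to POSTN (0.9) ratios overlapped between groups. The VCAN to POSTN ratio ran from 0.391 to 0.546 in lesion pools and from 0.318 to 0.668 in lesion-free pools.

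The members also differed in how alike their profiles were. Likeness was taken as the root mean square distance between log2 CPM values, each centred on its mean over the 6 pools, so that a smaller value is more alike. Of the 21 pairs of members, POSTN and VCAN were closest at 0.38, followed by THBS1 and FN1 at 0.42, VCAN and FN1 at 0.47, and CTGF and CYR61 at 0.49. The farthest pair was CYR61 and POSTN at 1.85. Among 10054 other tested genes with a name, the 5 nearest to POSTN were at 0.17 to 0.23. They were STEAP3, SLC6A6, INSIG1, TRIM63 and an entry named only for a sequenced clone. The 5 nearest to VCAN were SCD, INSIG1, ZNF217, TRIM63 and SLC16A7, at 0.18 to 0.24. INSIG1, a brake on sterol synthesis, and TRIM63, a muscle ubiquitin ligase, stood on both lists. Of the genes on either list only SCD was called (limma adjusted p = 0.0105). The others had limma adjusted p of 0.069 (INSIG1) to 0.499 (TRIM63), and TRIM63 had 12 to 98 counts in a pool. SCD, a fatty acid desaturase, was at 319, 185 and 276 CPM in lesion replicates 1, 2 and 3, against 54.5, 82.6 and 100.5 CPM in lesion-free replicates 4, 5 and 6. These distances are descriptions over 6 pools and were not tested.

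The deposited isoform table splits POSTN into POSTN-201 and POSTN-202. POSTN-202 had 782, 290.1 and 516 CPM in lesion replicates 1, 2 and 3, against 99.1, 66.7 and 99.4 CPM in lesion-free replicates 4, 5 and 6. The groups did not overlap, which held for 18.1% of all isoforms tested. It rose 5.63-fold, with a log2 fold of 2.49 (SE 0.37, 95% interval 1.68 to 3.30, limma adjusted p = 0.0181 over 12666 isoforms, of which 0.450% were called). POSTN-201 had 165, 52.8 and 79.9 CPM in lesion pools, against 39.8, 58.0 and 54.8 CPM in lesion-free pools. Its groups overlapped, since lesion replicate 2 was below lesion-free replicates 5 and 6, and its log2 fold of 0.77 did not pass (SE 0.40, 95% interval -0.12 to 1.65, limma adjusted p = 0.622).

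POSTN-202 made up 82.6%, 84.6% and 86.6% of POSTN isoform counts in lesion replicates 1, 2 and 3, against 71.4%, 53.5% and 64.4% in lesion-free replicates 4, 5 and 6. The mean share was 84.6% ± 2.00 in lesion pools and 63.1% ± 9.01 in lesion-free pools (SD, n = 3 each), without overlap. An exact two-sided permutation test of the share gave p = 0.1, the smallest possible here. Any shares without overlap between the groups would give this value. It was run for POSTN-202 alone, and how many of all isoforms had shares without overlap was not computed. Whether both isoforms changed unequally was also tested with limma's diffSplice across 601 genes with at least 2 tested isoforms, of which 0.666% were called. The log2 fold of POSTN-202 exceeded that of POSTN-201 by 1.73. The unadjusted Simes p of POSTN was 0.00961, rank 17 among these genes, of which 8.49% had one under 0.05, and it did not pass after adjustment (limma adjusted p = 0.34). POSTN-202 was itself not called without lesion-free replicate 4 (limma adjusted p = 0.0737) or 5 (0.0803). Isoform counts are estimates that divide shared reads, and the error of that division is not in the deposited table.

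**Figure D3:**
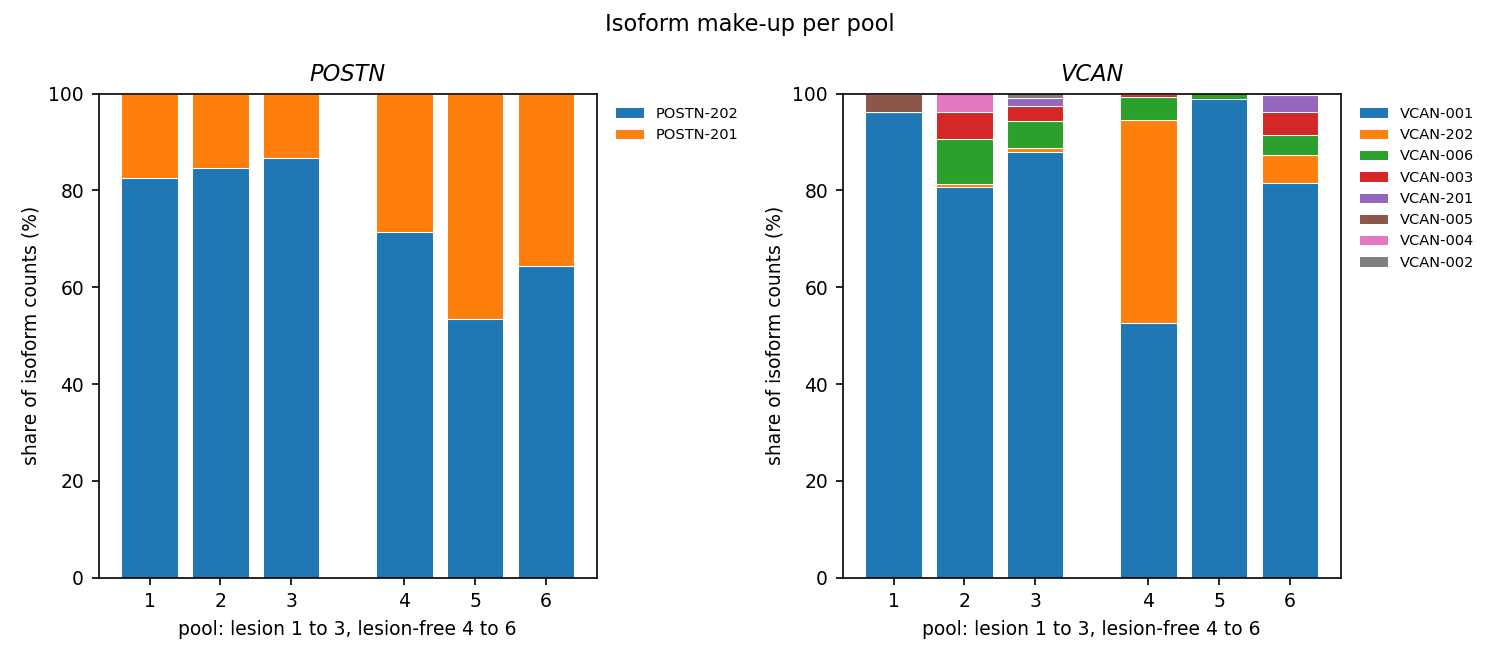
Share of each gene's isoform counts (vertical axis, percent) held by each isoform of POSTN (left) and VCAN (right) in lesion replicates 1 to 3 and lesion-free replicates 4 to 6. POSTN-202 held 82.6% to 86.6% in lesion pools and 53.5% to 71.4% in lesion-free pools, while VCAN-001 led in every pool and VCAN-202 held 42.1% in lesion-free replicate 4.

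VCAN had 9 isoforms in the table, of which 4 had enough counts to be tested. VCAN-203 was listed at 0 in every pool. VCAN-001 held most of the counts, with 356, 145 and 286 CPM in lesion replicates 1, 2 and 3, against 23.3, 78.5 and 83.9 CPM in lesion-free replicates 4, 5 and 6. Its groups did not overlap, but its log2 fold of 2.20 did not pass (SE 0.53, 95% interval 0.98 to 3.42, limma adjusted p = 0.225). Its share of VCAN counts was 96.1%, 80.6% and 88.0% in lesion pools, against 52.6%, 98.8% and 81.6% in lesion-free pools, with overlap. Lesion-free replicate 4 stood apart, because VCAN-202 held 42.1% there, against 0% to 5.75% in the other 5 pools. In lesion replicate 1 the minor isoforms VCAN-003, VCAN-006 and VCAN-202 were all listed at 0, and VCAN-005 had counts in that pool alone. The test of unequal change of VCAN isoforms gave a Simes p of 0.81 (limma adjusted p = 0.942).

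Of the listed genes found only under an identifier, none was called. TNC, which encodes tenascin C, a matricellular hexamer of injured tissue, stood at 354, 1132 and 939 CPM in lesion replicates 1, 2 and 3, against 656, 1696 and 2339 CPM in lesion-free replicates 4, 5 and 6. The groups overlapped, and the log2 fold was -0.94 (SE 0.53, 95% interval -2.13 to 0.24, limma adjusted p = 0.571). SPARC, the collagen-binding protein osteonectin, stood at 657, 1087 and 1799 CPM in lesion pools, against 1147, 1206 and 1359 CPM in lesion-free pools. Its log2 fold was -0.19 (SE 0.34, 95% interval -0.91 to 0.53, limma adjusted p = 0.874), and it was 0.19 without lesion replicate 1. CTHRC1, a secreted protein of injured arteries in rats, had 34, 11 and 36 counts in lesion pools, against 8, 0 and 18 counts in lesion-free pools. At so few counts its 95% interval ran from -1.38 to 5.85, and a difference was not detectable at this depth.

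Genes related to the provisional matrix, among them receptors, proteases, collagens and signalling genes, were read from 7 lists, which held 104 distinct tested genes. Of these, 2 were called higher, CD36 and SPP1, and 0 lower, beside the 0.968% and 0.0771% of all genes tested that were called higher and lower. At an unadjusted p under 0.05 limma had 12 higher and 8 lower, beside the 10.6% of all genes tested that passed in either direction. In 24 of them the groups were apart without overlap, to be read beside the 19.4% given above. The values of the called genes, or of those with the smallest p on a list with none, follow.

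Among matrix receptors, 1 of 19 tested entries rose and 0 fell, with a median log2 fold of 0.17. CD36, a receptor of thrombospondin 1 and of oxidised lipoprotein, was at 142, 45.6 and 40.8 CPM in lesion replicates 1, 2 and 3, against 2.81, 8.03 and 6.51 CPM in lesion-free replicates 4, 5 and 6. It was 11.4-fold higher (log2 fold 3.51, limma adjusted p = 0.036), and its call was lost when any of the lesion-free replicates 4, 5 and 6 was left out, with a largest limma adjusted p of 0.138. SDC2, a cell-surface heparan sulphate proteoglycan, had a log2 fold of 1.25 and ITGA5, the fibronectin receptor chain, one of -1.06. Neither passed (limma adjusted p = 0.0776 and 0.126), and both were chosen after their values were seen. The integrin chains ITGAV, ITGB1 and ITGB5, which take part in periostin or fibronectin binding, had log2 folds of 0.53, 0.08 and 0.27. They too were chosen outside the rule for names. ITGB3, another such chain on the list, was not matched by name.

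Among matricellular relatives, 1 of 16 rose and 0 fell, with a median of -0.28. SPP1, the phosphoprotein osteopontin, was at 1917, 548 and 396 CPM in lesion replicates 1, 2 and 3, against 1.73, 4.32 and 6.41 CPM in lesion-free replicates 4, 5 and 6 (log2 fold 7.67, limma adjusted p = 0.00935). Its call was lost when lesion-free replicate 4 (limma adjusted p = 0.149) or 6 (0.118) was left out, and its log2 fold was 6.97 without lesion replicate 1. Outside the rule for names, and chosen after their values were seen, are COMP and THBS4, which belong to the thrombospondin family, and TGFBI, the closest relative of periostin. COMP, the cartilage oligomeric matrix protein, stood at 137, 181 and 60.4 CPM in lesion replicates 1, 2 and 3, against 261, 343 and 388 CPM in lesion-free replicates 4, 5 and 6. Its log2 fold was -1.52 (SE 0.37, limma adjusted p = 0.075), and without lesion replicate 2 it was -1.88 and passed (limma adjusted p = 0.0101). That was the only 1 of the 6 fits with a pool left out in which COMP passed. Over these fits its log2 fold ran from -1.88 to -1.04, with a largest limma adjusted p of 0.278. THBS4, thrombospondin 4, stood at 0, 5.63 and 4.66 CPM in lesion replicates 1, 2 and 3, against 7.45, 20.51 and 20.04 CPM in lesion-free replicates 4, 5 and 6. Its log2 fold was -2.71 (SE 1.28, 95% interval -5.44 to 0.02, limma adjusted p = 0.472). TGFBI had a log2 fold of -0.38 (limma adjusted p = 0.653). Its groups were barely apart, with 55.6 CPM in lesion replicate 1 and 56.6 CPM in lesion-free replicate 4. In all 3 genes every lesion pool was below every lesion-free pool, and with all pools in the fit none of the 3 passed. They were the only 3 of the 16 tested genes lower without overlap, and 1 was higher without overlap. Beside this stands the 19.4% of all genes tested without overlap in either direction. THBS3, the other thrombospondin on the list, had a log2 fold of -0.15 with overlapping groups (limma adjusted p = 0.908).

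No gene was called on the other 5 lists. Among 13 hyaluronan and versican partners the median log2 fold was 0.05. ITIH5, a hyaluronan-binding chain, had -0.85 and FBN1, fibrillin 1, had 0.86 (limma adjusted p = 0.259 and 0.571). Among 6 versican proteases the median was 0.08, and ADAMTS1 and ADAMTS8 had -0.87 and -0.69 (0.423 and 0.544). Among 8 genes of the clot and plasma matrix the median was 0.53, with 1.39 for PLAU, the urokinase protease, and -0.62 for TGM2, a matrix cross-linking enzyme (0.191 and 0.437). Among 21 collagen and cross-linking genes the median was 0.24. PCOLCE, an enhancer of collagen processing, had -0.84 and COL14A1, a fibril-associated collagen, had 0.66 (0.257 and 0.329). Among 21 entries of TGF-beta and YAP response genes the median was 0.02, with -1.30 for TEAD3, a DNA-binding partner of YAP, and 0.79 for TGFB1, the TGF-beta ligand (0.143 and 0.405).

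**Figure D4:**
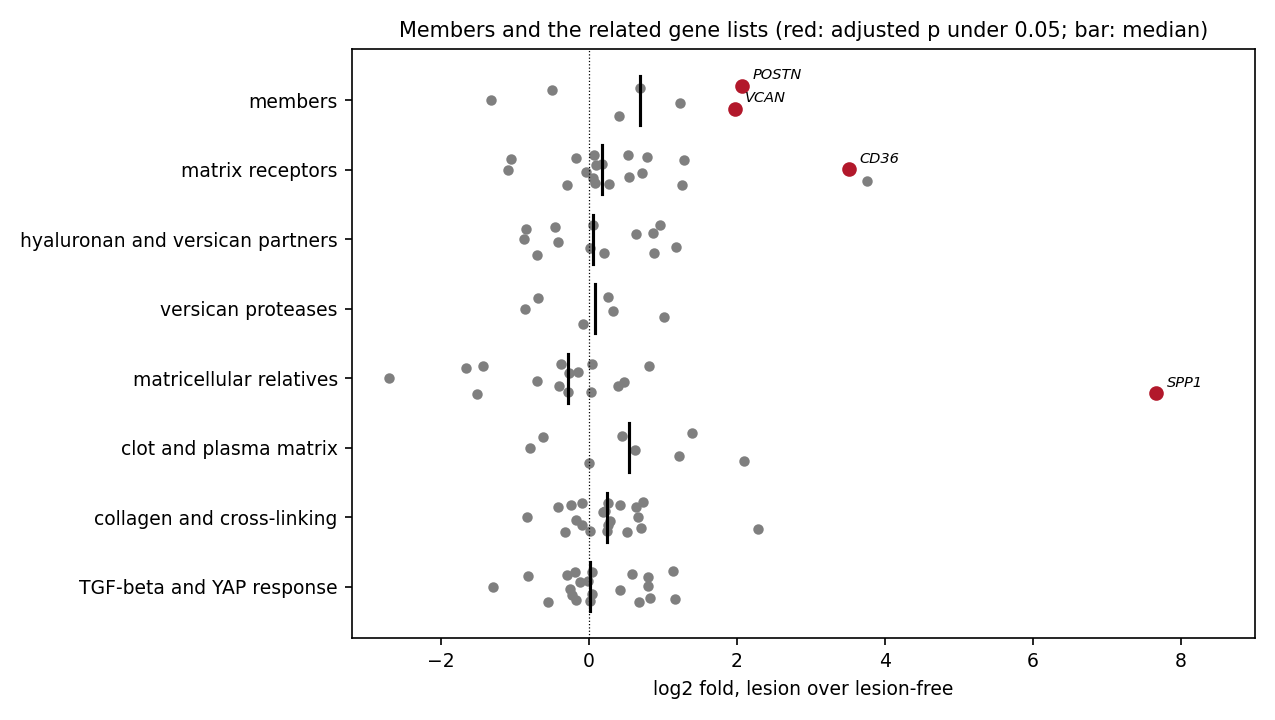
Log2 fold of lesion over lesion-free pools (horizontal axis) for each tested gene of the members and of the 7 related lists, with genes past the test in red and the median of each row as a bar. POSTN, VCAN, CD36 and SPP1 passed, and list medians lie between -0.28 and 0.53, against 0.69 for the members. Members and lists were chosen with earlier results of these data known.

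Of the cell types looked at, only macrophages and smooth muscle had markers that were called. Of 12 macrophage markers 11 were matched and 10 tested, and 9 were called higher in lesion pools. Their summed level was 1594 to 3677 CPM in lesion pools and 195 to 367 CPM in lesion-free pools. No matched macrophage marker was at 0 in every pool, though CD163 averaged 0.183 CPM in lesion pools and 0.237 CPM in lesion-free pools. In lesion replicates 1, 2 and 3 the sum was 3677, 1594 and 3201 CPM, the same order as for POSTN and VCAN. Among lesion-free pools the macrophage sum was highest for replicate 4 (367 CPM), then replicate 5 (245 CPM), then replicate 6 (195 CPM). VCAN ran the opposite way across these pools, rising from 44.0 through 79.7 to 103 CPM. POSTN had a further order, with 138 CPM for replicate 4, 125 CPM for replicate 5 and 154 CPM for replicate 6. The part of macrophages in the members' differences was not tested. In bulk tissue, fewer cells of a type and less RNA per cell cannot be told apart.

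Of 8 smooth muscle markers, 0 were higher and 2 lower (CNN1 and DES), with sums of 32953 to 45395 CPM in lesion pools and 72572 to 83880.0 CPM in lesion-free pools. Of 10 fibroblast and adventitia markers none was called, and their sums were 1407 to 1694 CPM in lesion pools and 1594 to 2455 CPM in lesion-free pools. Of 8 endothelial markers none was called, with sums of 508 to 669.5 CPM in lesion pools and 359 to 453 CPM in lesion-free pools. None was called among 3 T cell, 1 platelet, 2 adipocyte, 5 lymphatic, 4 nerve and 3 red blood cell markers tested. Platelet genes were low in every pool, with summed levels of 0 to 4.75 CPM in lesion pools and 2.95 to 5.64 CPM in lesion-free pools. GP9 and GP1BA were not matched by name, and only ITGA2B was tested. Platelets carry thrombospondin 1, but their part in the THBS1 level was not tested. ITGA2B, the platelet integrin chain, had 0, 39 and 29 counts in lesion replicates 1, 2 and 3, against 33, 35 and 14 counts in lesion-free replicates 4, 5 and 6. TUBB1 and GP6 had at most 15 counts in a pool, PF4 had counts in lesion-free replicate 6 alone, and PPBP and GP1BB were at 0 in every pool.

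**Figure D5:**
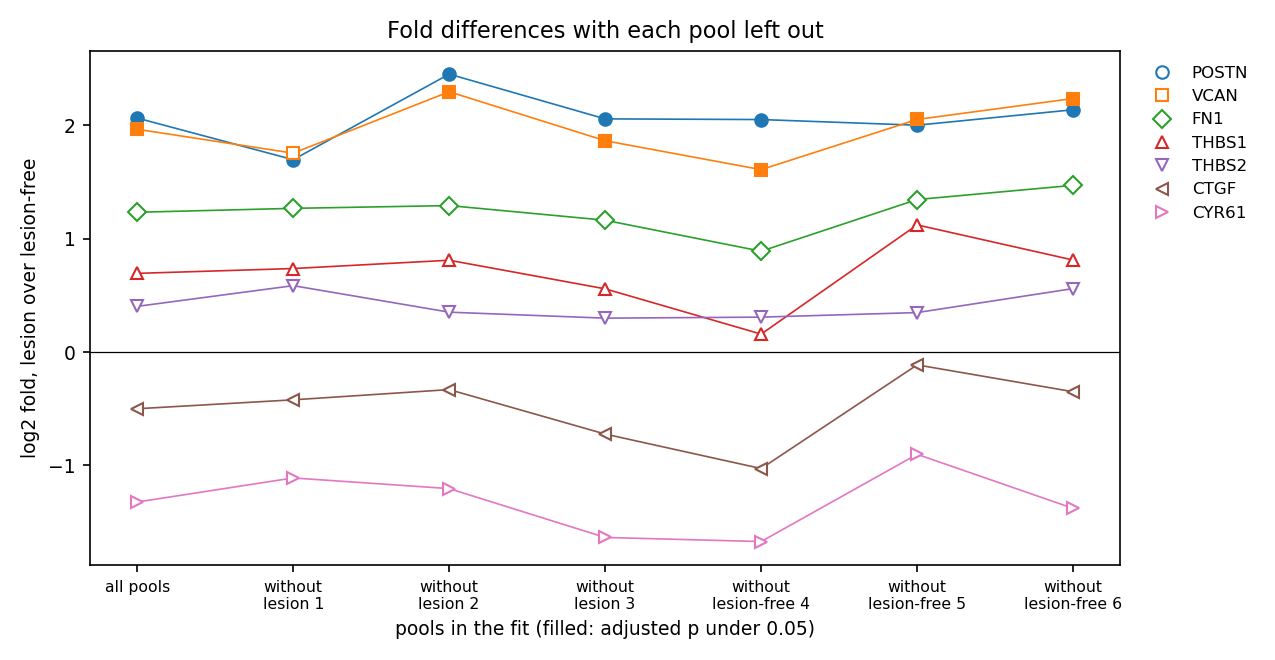
Log2 fold of lesion over lesion-free pools (vertical axis) of the 7 members with all pools and with each pool left out in turn, filled where the adjusted p was under 0.05. POSTN stayed called throughout at 1.70 to 2.45, VCAN was not called without lesion replicate 1, and no member changed sign.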

How the data were processed

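The authors deposited a gene table and an isoform table of raw counts per pool, whole numbers written with commas between groups of digits, which were removed. The submitters' processing notes list RSEM 1.3.0 and edgeR with no role stated. No coordinates are printed, since aligner, genome build and annotation are not given in the sources. Per the labels' protocols, libraries came from a stranded total RNA kit.

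Genes were tested when they reached 1.00 CPM (10 counts in a median library) in at least 3 pools, with 15 counts in all. Library scaling used TMM, the trimmed mean of M values (30% of M and 5% of A trimmed). limma 3.58.1 in R 4.3.3 was run with voom (0.5 added to each count) and robust empirical Bayes on all 6 pools, two-sided, with Benjamini-Hochberg adjustment over all genes tested. The columns were recorded as counts with commas, and count models were not used, although the values were whole numbers once the commas were removed. An isoform was tied to a gene by its name where isoform counts summed to the gene count within 1. The procedure was tested on simulated data. Pools of 1 group differed by a chi-square of 22.7 to 97.7 per degree of freedom, so none repeated another within sampling noise.

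Members and lists were chosen with earlier results of these data known. Named genes were all members, for each list up to 3 called genes (otherwise the 2 with the smallest p), and the 5 nearest profiles of POSTN and VCAN. Others are said to be outside this rule.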

Additional observations from a re-analysis of the deposited data

How the results depend on the processing

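The alternatives were other library scalings (total counts, median of ratios), no low-count filter, limma trend, sample quality weights, no robust option and leaving out each pool. Of the 7 members, 2 were called higher in all of these except without lesion replicate 1 (range 1 to 2 with a pool left out) and total counts only, where FN1 made 3, and 0 were called lower in every one. Of the POSTN and VCAN isoforms, 1 was called higher, or 0 to 1 with a pool left out. On the 7 related lists, 2 genes were called higher and 0 lower, against 0 to 3 and 0 to 1 with a pool left out. With sample quality weights, 1 was lower, ITGA5 (limma adjusted p = 0.0288), and without lesion replicate 2, COMP was (0.0101). The log2 fold of SPARC, -0.19 with all pools, reversed to 0.19 without lesion replicate 1 (range -0.55 to 0.19 with a pool left out). That of isoform VCAN-202, -1.22 with all pools, reversed to 0.20 with sample quality weights and to 0.46 without lesion-free replicate 4 (range -3.47 to 0.46 with a pool left out). The causes were not tested. Over all genes tested, 113 were higher and 9 lower, against 171 and 17 without a filter, 213 and 40 with sample quality weights, and 54 (without lesion-free replicate 6) to 143 and 3 (without lesion-free replicate 6) to 33 (without lesion replicate 3) with a pool left out. No paired analysis was possible because the groups share no replicate numbers. Lesion replicate 1 held 4650176 counts, and without it VCAN had a limma adjusted p of 0.0716.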

Other observations

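THBS1 also had several isoforms, and they were looked at after the values were seen. THBS1-002 was listed at 0 in lesion replicate 1 and in lesion-free replicate 4. In lesion replicates 2 and 3 it had 2459 and 5876 counts, 19.0% and 32.5% of THBS1 isoform counts, and in lesion-free replicates 5 and 6 it had 1344 and 2673 counts, 10.8% and 27.8%. The same pair of pools thus stood apart, with THBS1-001 at 99.0% in lesion replicate 1 and 99.8% in lesion-free replicate 4. The test of unequal change between groups gave a Simes p of 0.758 for THBS1 (limma adjusted p = 0.934).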
